A study of Mus musculus with 12 samples.

Results

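The enzymes that write, maintain and remove DNA methylation were followed at the RNA level in differentiating mouse erythroid cells. The cells were given a zinc chelator, siRNA against a zinc importer, or both. The set holds 8 genes, chosen by name: Uhrf1, Dnmt1, Dnmt3a, Dnmt3b, Tet1, Tet2, Tet3 and Tdg. All 8 were found, each in 1 row among the 55487 gene rows of every library. The cells were G1E-ER4, a mouse erythroid progenitor line derived from embryonic stem cells that lacks the erythroid transcription factor GATA1 and carries a GATA1 fused to an estrogen receptor domain. All cultures grew with erythropoietin and Kit ligand, received siRNA by nucleofection in a pair of transfections 24 h apart, and were given 100 nM β-estradiol, which switches the GATA1 fusion on, at the second transfection. They were harvested 24 h later. The groups were siZIP10 plus DTPA (siRNA that targets Slc39a10, the gene of the zinc importer ZIP10, and 25 µM of the zinc chelator DTPA from the start of differentiation; n = 3), siZIP10 (that siRNA without DTPA; n = 3), siControl plus DTPA (control siRNA and 25 µM DTPA; n = 2) and siControl (control siRNA alone; n = 3). The third library labelled siControl plus DTPA held the values of siZIP10 replicate 1 in all 55487 rows and was left out. All libraries come from 1 cell line, and the labels call the replicates biological without saying whether they were separate transfections on separate days, so p-values measure the spread between these cultures.

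DNA methylation places a methyl group on cytosines that precede guanines. DNMT1 copies the pattern onto the new strand after replication, and UHRF1 brings it there by binding hemimethylated sites. DNMT3A and DNMT3B set new methylation. TET enzymes oxidise methylcytosine, and TDG, a glycosylase, cuts out the further oxidised bases so that base excision repair restores an unmethylated cytosine. In erythroid maturation the genome loses methylation globally as cells divide. DNA methylation and protein were not measured here.

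Promoter sequences are given first for Uhrf1 and Dnmt1, the genes of the set that passed the threshold, as lower, in each of the 3 comparisons with siControl. Each window runs from 250 bases before to 50 after a start site (RefSeq, GRCm38.p6, which is mm10), read in the direction of the gene, and capitals mark the letters searched as E2F motifs. E2F factors drive genes needed for DNA replication. The searched E2F motifs were TTTCCCGC, TTTCGCGC, TTTGCCGC and TTTGGCGC, on both strands. The Uhrf1 window is chr17:56304063-56304362, plus strand, and holds TTTCGCGC at bases 66 to 73, counted from the 5′ end of the window. The Dnmt1 window is chr9:20952574-20952873, minus strand, with GCGCGAAA (TTTCGCGC on the other strand) at bases 32 to 39 and TTTGGCGC at bases 284 to 291.
Uhrf1: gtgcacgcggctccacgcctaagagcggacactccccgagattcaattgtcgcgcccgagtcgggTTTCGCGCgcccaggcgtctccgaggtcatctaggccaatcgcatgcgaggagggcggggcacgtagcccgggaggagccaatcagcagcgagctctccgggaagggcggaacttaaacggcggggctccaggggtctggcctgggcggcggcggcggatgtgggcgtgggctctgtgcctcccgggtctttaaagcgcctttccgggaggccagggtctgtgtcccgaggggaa
Dnmt1: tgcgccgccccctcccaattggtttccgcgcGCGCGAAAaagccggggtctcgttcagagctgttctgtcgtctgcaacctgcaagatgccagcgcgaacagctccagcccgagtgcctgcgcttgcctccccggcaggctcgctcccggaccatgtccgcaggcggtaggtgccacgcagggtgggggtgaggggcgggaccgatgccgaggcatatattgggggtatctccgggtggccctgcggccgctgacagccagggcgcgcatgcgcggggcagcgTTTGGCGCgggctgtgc
RefSeq gives 13 such windows for the 8 genes, and these were the 2 windows with an E2F motif (15.4%), printed for that reason. Uhrf1 has 2 windows and Dnmt1 has 3, and those not printed held 0 E2F motifs. The motifs lay in 2.27% of 32851 windows of all genes, in 4.46% of the 9754 windows of tested genes, and in 40% of 30 windows of the S-phase genes described below. Both printed windows hold 33 CpG dinucleotides, and 91.4% of all windows hold fewer. Motifs of the zinc-sensing factor MTF1 (TGCACNC and TGCGCNC, both strands) lay in 8 of the 13 windows (61.5%), against 56.7% of S-phase gene windows, 36.3% of windows of tested genes and 25.7% of all windows. GATA motifs (AGATAA and TGATAA, both strands) lay in 0 of the 13, against 6.67%, 10.1% and 18.6% in the same order. The median CpG count was 26 in the 13 windows, against 22, 21 and 7 in that order, and TGCGCNC itself holds a CpG. The part of CpG content in the motif shares was not tested. All motifs here are matches of letters, and gene values do not tell which start site was used.

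Expression is given as TPM, transcripts of a gene among 1e+06 transcripts of the library, so levels can be compared between genes. Changes are differences of group means of log2(TPM + 1), which understate changes of genes at low TPM, with standard errors (SE) and p-values from limma adjusted by the Benjamini-Hochberg method over the 11379 genes that averaged 1 TPM or more across libraries. A gene rose or fell where its adjusted p was under 0.05. Of the 8 genes, 6 passed that filter. Dnmt1 was the most abundant in every group, at 39.2 ± 1.61 TPM in siZIP10 plus DTPA and 68.3 ± 1.93 TPM in siControl (SD, n = 3 each). Uhrf1 was second in siControl cells at 29.5 ± 0.641 TPM, and the lowest of the 6 in siZIP10 plus DTPA cells at 3.81 ± 0.138 TPM (SD, n = 3 each). From high to low, the mean levels in siZIP10 plus DTPA ran Dnmt1, Tet3, Tet2, Tdg, Dnmt3b and Uhrf1, and of these neighbours Tet2 and Tdg overlapped between libraries. In siControl they ran Dnmt1, Uhrf1, Tet3, Tdg, Tet2 and Dnmt3b, with no overlap between neighbours. In siZIP10 Uhrf1 overlapped Tet3, and Tet2 overlapped Tdg, while in siControl plus DTPA no neighbours did.

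**Figure D1:**
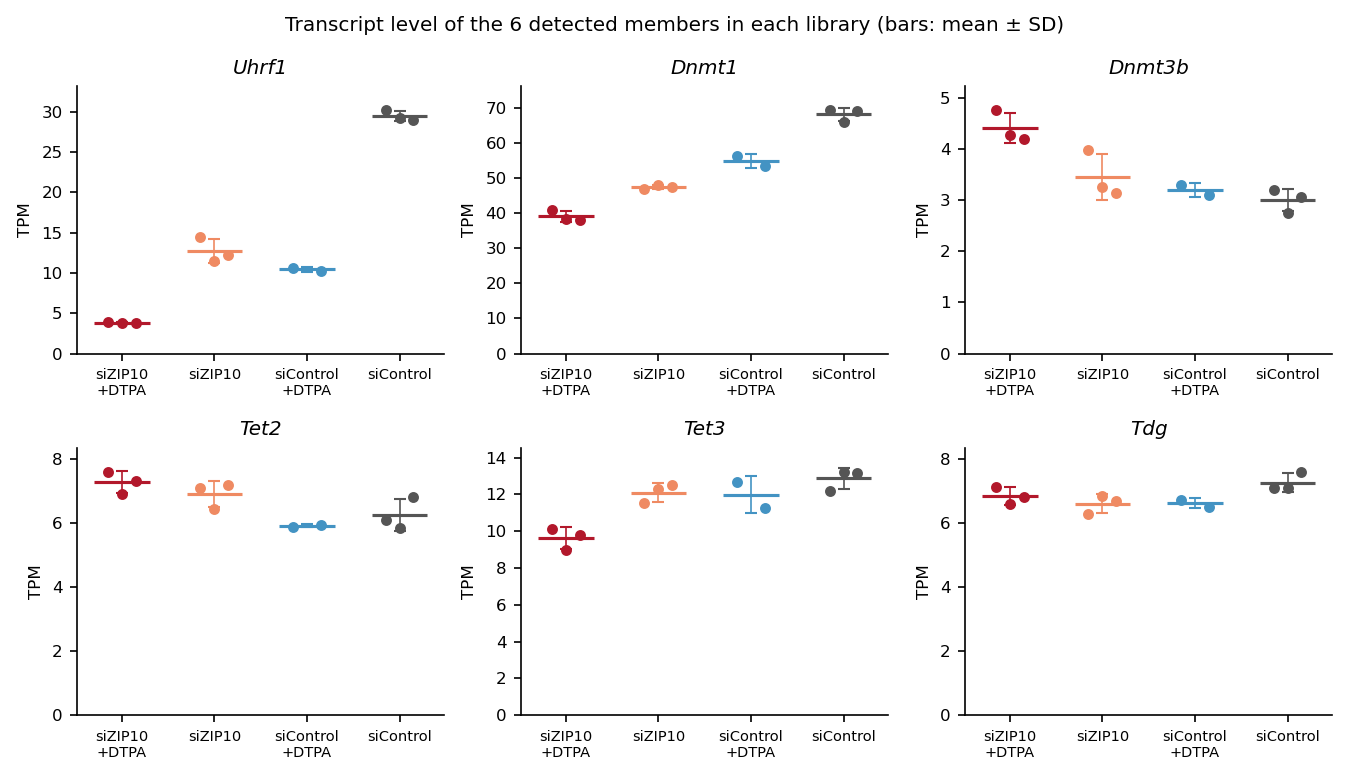
TPM of the 6 detected genes (y axes from 0) in each library of siZIP10 plus DTPA, siZIP10, siControl plus DTPA and siControl (x axes), with points for libraries and bars for mean ± SD. Uhrf1 and Dnmt1 sit below siControl in every treated library, while Dnmt3b and Tet2 have their highest mean, and Tet3 its lowest mean, with both treatments.

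Slc39a10, the target of the siRNA, stood at 5.10 TPM in siZIP10 plus DTPA against 21.1 TPM in siControl plus DTPA, and at 0.627 TPM in siZIP10 against 2.62 TPM in siControl, so doubly treated cells held 194.5% of the siControl level. Mt2, a metallothionein gene switched on by zinc, was at 14.96 to 26.2 TPM in the 5 DTPA libraries and at 1963 to 2497 TPM in the other 6. Recovered depth was 19.63 to 24.69 M reads per library (1 M is 1e+06). Mitochondrial rRNA made up 1.43% to 1.45% of TPM in siZIP10 plus DTPA and 0.262% to 0.421% elsewhere, while protein-coding genes of the nucleus made up 77.3% to 79.6% there and 82.6% to 84.1% elsewhere. Of the 10 erythroid markers, 9 were matched by name and expressed in every library (summed level 33469 to 35894 TPM in siZIP10 plus DTPA, 35246 to 40103 TPM in siControl). With both treatments 7 of these 9 fell and 2 rose (39.9% and 26.7% over all tested genes). Megakaryocyte markers summed to 57.3 to 58.5 TPM in siZIP10 plus DTPA and 16.2 to 17.5 TPM in siControl, with 2 of 8 at 0 throughout. Most of that sum was Gp1ba (27.1 against 7.78 TPM) and Itgb3 (22.4 against 5.96 TPM), while Gp9 was at 1.51 against 1.76 TPM. Myeloid markers summed to 41.7 to 44.3 against 15.8 to 16.5 TPM (5 of 10 at 0, Mpo and Elane among them), mast cell and basophil markers to 20.8 to 22.7 against 0.832 to 1.26 TPM (4 of 8 at 0, nearly all of the sum from Hdc), and lymphoid markers to 2.38 to 3.25 against 0.296 to 1.08 TPM (6 of 10 at 0). Most of the myeloid sum was Spi1 (36.7 against 13.1 TPM), and nearly all of the lymphoid sum was Cd79a (2.81 against 0.718 TPM). These sums thus rest on few genes. In the single treatments the erythroid sum was 40935 to 42925 TPM in siZIP10 and 44394 to 47472 TPM in siControl plus DTPA, the megakaryocyte sum 17.2 to 18.7 and 25.7 to 26.7 TPM, the myeloid sum 13.9 to 15.0 and 22.4 to 23.2 TPM, the mast cell and basophil sum 1.69 to 2.18 and 2.00 to 2.49 TPM, and the lymphoid sum 0.583 to 1.61 and 0.686 to 0.901 TPM in the same order. The part of these shifts in the results below was not tested. In bulk RNA, fewer cells that express a gene and less RNA per cell cannot be told apart.

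Maintenance genes fell in every treatment, Uhrf1 far more than Dnmt1. Uhrf1 (ENSMUSG00000001228.14, mm10 chromosome 17, 56303321 to 56323486, plus strand) stood at 3.96, 3.73 and 3.73 TPM in siZIP10 plus DTPA (125, 132 and 110 recovered reads), at 14.5, 11.5 and 12.2 TPM in siZIP10, at 10.6 and 10.2 TPM in siControl plus DTPA, and at 30.2, 29.2 and 29.0 TPM in siControl. The 4 groups did not overlap. With both treatments Uhrf1 was at 12.9% of siControl (log2 change −2.66, SE 0.07, adjusted p = 2.269e-10, limma), with the knockdown alone at 43.2% (−1.16, SE 0.07, adjusted p = 2.341e-06) and with DTPA alone at 35.4% (−1.41, SE 0.08, adjusted p = 1.915e-06). Among 11379 genes these were the 85th, the 92nd and the 27th lowest changes. DTPA lowered Uhrf1 in knockdown cells as well (to 29.9% of siZIP10, −1.51, adjusted p = 2.735e-08), and the knockdown lowered it in DTPA-treated cells (to 36.5% of siControl plus DTPA, −1.25, adjusted p = 4.539e-07).

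The Uhrf1 falls combined about as a product. The DTPA effect in knockdown cells minus that in control cells was −0.10 (95% interval −0.34 to 0.15, adjusted p = 0.564), and multiplying the single-treatment levels gives 15.3% of siControl, against the 12.9% observed. A p above the threshold does not show that the effects were equal.

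Dnmt1 (ENSMUSG00000004099.16, chromosome 9, 20907209 to 20959888, minus strand) stood at 41.1, 38.4 and 38.2 TPM in siZIP10 plus DTPA, 47.1, 48.2 and 47.6 TPM in siZIP10, 56.4 and 53.6 TPM in siControl plus DTPA, and 69.4, 66.1 and 69.3 TPM in siControl. Its groups too did not overlap, and each value rests on 1954 to 3897 reads. It fell to 57.4% of siControl with both treatments (−0.78, SE 0.04, adjusted p = 1.364e-08), 69.8% with the knockdown (−0.51, SE 0.04, adjusted p = 6.24e-06) and 80.6% with DTPA (−0.31, SE 0.04, adjusted p = 3.52e-04). The order of the single treatments was thus the opposite of that for Uhrf1: for Dnmt1 the knockdown libraries were lower than the DTPA libraries. The siZIP10 and siControl plus DTPA groups (n = 3 and n = 2) were not tested against each other. The Dnmt1 interaction too did not pass the threshold (0.03, 95% interval −0.09 to 0.16, adjusted p = 0.713, limma), which does not show that the DTPA effects were equal.

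The balance of the maintenance pair shifted. The Uhrf1 to Dnmt1 ratio of TPM was 0.0965, 0.0971 and 0.0975 in siZIP10 plus DTPA, 0.307, 0.239 and 0.256 in siZIP10, 0.189 and 0.191 in siControl plus DTPA, and 0.435, 0.442 and 0.418 in siControl. The doubly treated libraries held a ratio 0.225 times that of siControl, and no treated library reached the siControl range. An exact two-sided permutation test of this ratio gave p = 0.1 for each treatment against siControl, the smallest these group sizes allow (adjusted p = 0.109 over 12 comparisons of 4 ratios).

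**Figure D2:**
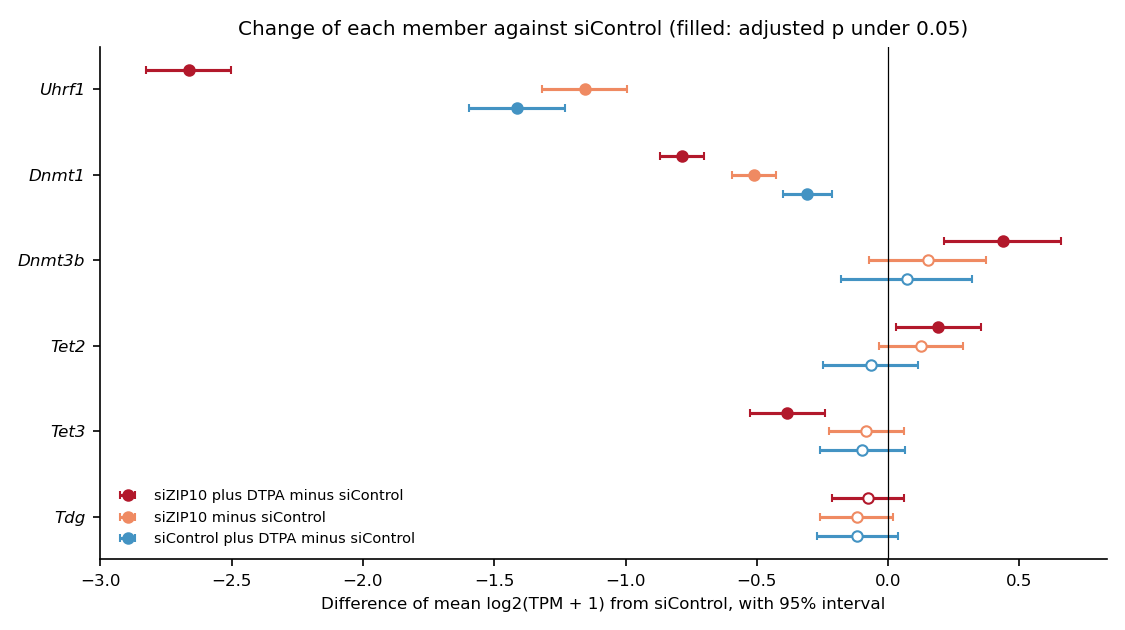
Difference of mean log2(TPM + 1) from siControl (x axis) for each tested gene (y axis), with 95% intervals from limma, for siZIP10 plus DTPA, siZIP10 and siControl plus DTPA. Filled points have an adjusted p under 0.05: Uhrf1 and Dnmt1 in all 3 comparisons, Dnmt3b, Tet2 and Tet3 with both treatments.

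Uhrf1 and Dnmt1 fell alongside genes of DNA replication, the phase in which their products act. Of 32 S-phase genes, all tested, 31 fell and 1 rose with both treatments (median −1.71, all tested genes −0.08), and 29 fell and 0 rose with the knockdown (median −0.77 against −0.01) and with DTPA (median −0.64 against −0.04). Over all tested genes 39.9% fell and 26.7% rose with both treatments. These shares were 17.5% and 13.1% with the knockdown, and 18.8% and 9.98% with DTPA. Mcm5, a subunit of the replicative helicase, averaged 4.95 ± 0.859 TPM in siZIP10 plus DTPA and 104.0 ± 0.312 TPM in siControl (−4.15, adjusted p = 5.175e-11). Rrm2, the ribonucleotide reductase subunit that supplies deoxynucleotides, averaged 5.14 ± 0.403 TPM against 85.4 ± 2.14 TPM (−3.82, adjusted p = 5.694e-12), and Mcm6 3.03 ± 0.134 TPM against 43.7 ± 0.819 TPM (−3.47, adjusted p = 8.56e-13; SD, n = 3 each). By change of log2(TPM + 1), which understates falls of genes at low TPM, 0 of the 32 fell more than Uhrf1 with DTPA alone. With the knockdown 2 did, and with both treatments 5 did. Dnmt1 lay at the other end, with 29, 26 and 27 of the 32 below it.

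The tested genes whose level over the 11 libraries ran closest to that of Uhrf1 were E2f2, E2f8 and Mybl2, which encode E2F-family and MYB-family regulators of the cell cycle. The measure was the mean absolute difference of centred log2(TPM + 1) values, at 0.116, 0.129 and 0.132 for these 3, against a mean absolute deviation of 0.786 for Uhrf1 itself. E2f2 averaged 3.41, 13.1, 11.2 and 25.3 TPM in siZIP10 plus DTPA, siZIP10, siControl plus DTPA and siControl. Dnmt1 was the 1341st closest to Uhrf1. The measure takes in the size of a change as well as its course, and the mean absolute deviation of Dnmt1 was 0.260. Closest to Dnmt1 itself were Tle3, Gle1 and Haus8, with differences of 0.0422, 0.0466 and 0.0477.

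**Figure D3:**
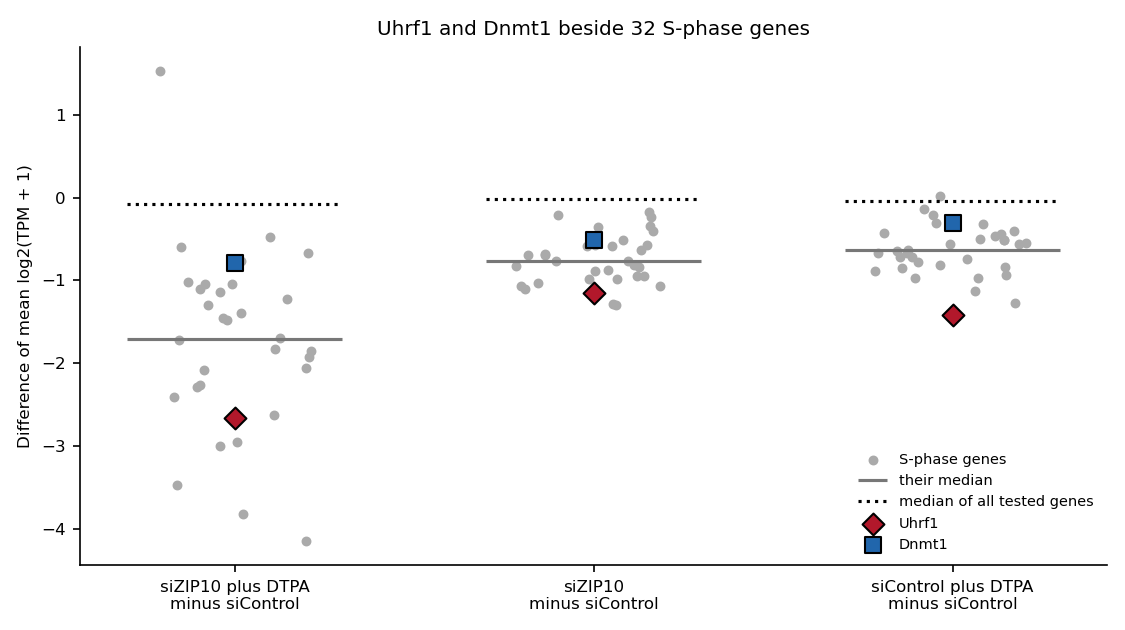
Difference of mean log2(TPM + 1) from siControl (y axis) of 32 S-phase genes (grey points, median as a grey line), Uhrf1 (red diamond) and Dnmt1 (blue square) in 3 comparisons (x axis), with the median of all tested genes dotted. Uhrf1 lies below the S-phase median (−1.71, −0.77 and −0.64) in each comparison and Dnmt1 above it.

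Of the de novo enzymes, Dnmt3b was present and Dnmt3a was not detected. Dnmt3a (ENSMUSG00000020661.15, chromosome 12, 3806007 to 3914443, plus strand) had 1 read in all 11 libraries, at 0.00864 TPM in siControl replicate 2, and was listed at 0 in the other 10. A count of 0 allows up to 3 reads, which is 0.0217 to 0.0291 TPM depending on the library, counting error only. Of 20 genes that every cell uses, 0 were listed at 0 in any library, the lowest value being 7.08 TPM. Dnmt3l, the catalytically inactive partner of DNMT3A and DNMT3B, was at 0 throughout.

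Dnmt3b (ENSMUSG00000027478.15, chromosome 2, 153649450 to 153687730, plus strand) stood at 4.76, 4.29 and 4.21 TPM in siZIP10 plus DTPA, 3.98, 3.26 and 3.14 TPM in siZIP10, 3.30 and 3.11 TPM in siControl plus DTPA, and 3.19, 2.76 and 3.06 TPM in siControl. It had the largest rise among the 6 tested genes. All 3 doubly treated libraries were above all others, whereas either treatment alone overlapped siControl. Dnmt3b rose to 147.1% of siControl with both treatments (0.44, SE 0.10, adjusted p = 0.00277). With the knockdown alone the difference was 0.15 (95% interval −0.07 to 0.37) and with DTPA alone 0.07 (−0.18 to 0.32), with adjusted p-values of 0.2997 and 0.6895. The rise with DTPA within knockdown cells (0.29, adjusted p = 0.0305) was lost without siZIP10 replicate 2 or 3 or without siZIP10 plus DTPA replicate 1 or 2 (adjusted p = 0.0535 to 0.102), and that with the knockdown within DTPA-treated cells (0.37, adjusted p = 0.0189) without either siControl plus DTPA library or without siZIP10 plus DTPA replicate 1 (0.0561 to 0.0999). Its values rest on 97 to 182 reads a library. The Dnmt3b to Dnmt1 ratio was 0.113 in siZIP10 plus DTPA, 0.0726 in siZIP10, 0.0582 in siControl plus DTPA and 0.0440 in siControl. Dnmt1 fell in each treatment. Against siControl Dnmt3b passed only with both treatments, so the single-treatment ratios do not show a rise of Dnmt3b.

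Among the TET genes, Tet1 was not detected and Tet2 and Tet3 moved in opposite directions with both treatments. Tet1 (ENSMUSG00000047146.17, chromosome 10, 62804570 to 62908996, minus strand) had 1 read in 11 libraries, at 0.00878 TPM in siControl plus DTPA replicate 1, and 3 reads would be 0.0233 to 0.0313 TPM. Of the 2 nearest protein-coding genes on either side, Ccar1 was at 33.4 to 41.9 TPM and Stox1 at 0 before it, and Slc25a16 at 9.75 to 12.0 TPM and Dna2 at 0.506 to 1.69 TPM after it. Around Dnmt3a, Asxl2 was at 47.8 to 55.3 TPM, while Dtnb, Pomc and Efr3b reached at most 0.0425 TPM.

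Tet3 (ENSMUSG00000034832.15, chromosome 6, 83362373 to 83459084, minus strand) was the more abundant. It stood at 10.1, 9.00 and 9.78 TPM in siZIP10 plus DTPA, 11.5, 12.3 and 12.5 TPM in siZIP10, 12.7 and 11.3 TPM in siControl plus DTPA, and 12.2, 13.2 and 13.2 TPM in siControl. The doubly treated libraries were below all others and the single treatments overlapped siControl. Tet3 fell to 74.9% of siControl with both treatments (−0.38, SE 0.06, adjusted p = 3.418e-04), and to 79.7% of siZIP10 when DTPA was added to knockdown cells (−0.30, adjusted p = 0.00215). Against siControl plus DTPA it fell to 80.5% (−0.29, adjusted p = 0.00698), a call that did not hold when siControl plus DTPA replicate 1 was left out (−0.21, adjusted p = 0.0831). The difference was −0.08 with the knockdown alone (95% interval −0.23 to 0.06) and −0.10 with DTPA alone (−0.26 to 0.06). The interaction was −0.20 (95% interval −0.42 to 0.01, adjusted p = 0.143), past the threshold with quantile normalization (−0.25, adjusted p = 0.0436) and voom (−0.19, adjusted p = 0.0463).

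Tet2 (ENSMUSG00000040943.12, chromosome 3, 133463679 to 133545139, minus strand), a gene often mutated in human blood disorders, stood at 7.61, 6.92 and 7.32 TPM in siZIP10 plus DTPA, 7.10, 6.45 and 7.19 TPM in siZIP10, 5.89 and 5.95 TPM in siControl plus DTPA, and 6.10, 5.86 and 6.82 TPM in siControl. The doubly treated libraries were above those of siControl by a narrow margin, 6.92 against 6.82 TPM at the nearest. Tet2 rose to 116.3% of siControl with both treatments (0.19, SE 0.07, adjusted p = 0.0379). The call was lost without siControl replicate 1 or 2 and without siZIP10 plus DTPA replicate 1 or 3 (adjusted p = 0.0846 to 0.128). Against siControl plus DTPA it rose to 123.0% (0.26, adjusted p = 0.0211), a call lost without either siControl plus DTPA library or without siZIP10 plus DTPA replicate 1 (0.0626 to 0.0886). With the knockdown alone the difference was 0.13 (95% interval −0.04 to 0.29, adjusted p = 0.231) and with DTPA alone −0.07 (−0.25 to 0.11, adjusted p = 0.596). Within the genome 43 bases of its exons lie opposite an antisense gene, Gm42567, which averaged 0.198 TPM.

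The Tet3 to Tet2 ratio was 1.33, 1.30 and 1.34 in siZIP10 plus DTPA, 1.62, 1.90 and 1.74 in siZIP10, 2.15 and 1.89 in siControl plus DTPA, and 2.00, 2.26 and 1.93 in siControl. It was lower in the doubly treated libraries than in any other library. With the knockdown alone it lay below siControl without overlap (exact permutation p = 0.1), and with DTPA alone it overlapped siControl (exact permutation p = 0.9). Set against the maintenance enzyme, the sum of Tet2 and Tet3 over Dnmt1 averaged 0.432 ± 0.0163 in siZIP10 plus DTPA, 0.399 ± 0.0126 in siZIP10, 0.325 ± 0.00589 in siControl plus DTPA and 0.280 ± 0.0145 in siControl (SD, n = 3 except 2 in siControl plus DTPA). Each treated group lay above the siControl libraries without overlap (exact permutation p = 0.1, the smallest possible). Dnmt1 itself fell in each treatment. Tet2 averaged 7.28 TPM with both treatments against 6.26 TPM in siControl, and Tet3 9.64 against 12.9 TPM. Neither passed the threshold in a single treatment with limma, so the higher ratios do not show more TET transcript.

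**Figure D4:**
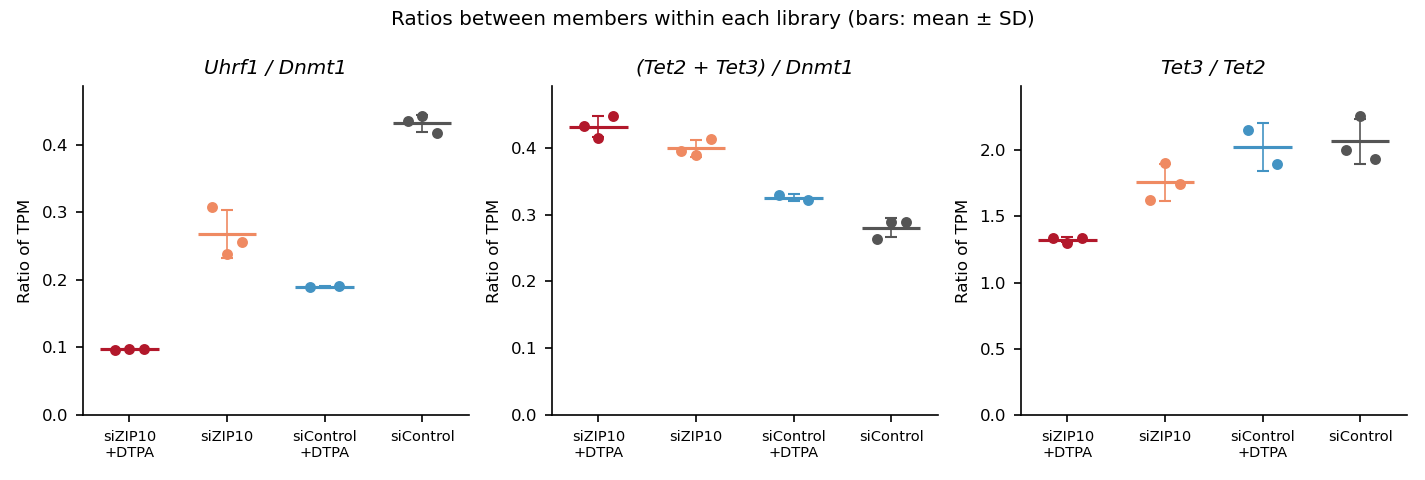
Ratios of TPM (y axes from 0) of Uhrf1 to Dnmt1, of Tet2 plus Tet3 to Dnmt1, and of Tet3 to Tet2 in each library of the 4 groups (x axes), with points for libraries and bars for mean ± SD. The doubly treated libraries have the lowest Uhrf1 to Dnmt1 ratio (0.0965 to 0.0975) and the lowest Tet3 to Tet2 ratio (1.30 to 1.34).

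Tdg (ENSMUSG00000034674.18, chromosome 10, 82629828 to 82650799, plus strand) passed the threshold in 0 of 6 comparisons. It stood at 7.11, 6.58 and 6.82 TPM in siZIP10 plus DTPA, 6.28, 6.84 and 6.67 TPM in siZIP10, 6.72 and 6.50 TPM in siControl plus DTPA, and 7.09, 7.09 and 7.59 TPM in siControl. The libraries of either single treatment lay just below those of siControl, with differences of −0.12 for the knockdown (95% interval −0.26 to 0.02, adjusted p = 0.179) and −0.12 for DTPA (−0.27 to 0.04, adjusted p = 0.243). With both treatments the difference was −0.08 (−0.21 to 0.06, adjusted p = 0.306). Tdg values are uncertain, because Tdg-ps2, a transcribed pseudogene copy, was listed at 39.2 to 51.5 TPM and reads could be divided between the copies.

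In counts, 5 of the 6 tested genes passed with both treatments, where 66.6% of all tested genes did. Of these 2 were higher and 3 lower, with 26.7% of all genes higher and 39.9% lower. With the knockdown alone 2 passed (background 30.6%), 0 higher (13.1%) and 2 lower (17.5%). With DTPA alone 2 passed (28.8%), 0 higher (9.98%) and 2 lower (18.8%). DTPA within knockdown cells gave 4 (60.4%), 1 higher (23.1%) and 3 lower (37.3%), and the knockdown within DTPA-treated cells 5 (53.1%), 2 higher (21.3%) and 3 lower (31.7%). The interaction gave 0 with limma (32.4% of all genes, 12.0% higher and 20.4% lower), with 0 at an unadjusted p under 0.05 and 1, Tet3, with voom. Read against these shares, the number of genes that moved is not a result about the set. The comparisons with siControl share its 3 libraries.

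Genes whose products work with the maintenance machinery moved in both directions. Of 14 methylation partner genes 11 were tested, of which 2 rose and 6 fell with both treatments (median −0.13), 1 rose and 5 fell with the knockdown (−0.05), and 1 rose and 5 fell with DTPA (−0.08). Over all tested genes 26.7% rose and 39.9% fell with both treatments, 13.1% and 17.5% with the knockdown, and 9.98% and 18.8% with DTPA. The count with both treatments was 1 higher and 4 lower without siControl replicate 1 and 0 higher and 5 lower without siControl replicate 3, and that with DTPA was 1 higher and 2 lower without siControl plus DTPA replicate 2 and 1 higher and 3 lower without either siControl replicate 1 or siControl plus DTPA replicate 1. Cdca7, which with the remodeller HELLS opens heterochromatin to methylation, averaged 2.32 ± 0.314 TPM in siZIP10 plus DTPA and 8.71 ± 0.888 TPM in siControl (−1.55, adjusted p = 2.983e-07). Pclaf, a PCNA-binding protein that recruits DNMT1 to replicating DNA, averaged 0.247 ± 0.0438 against 2.47 ± 0.679 TPM (−1.46, adjusted p = 2.301e-05). Hells averaged 1.57 ± 0.204 against 3.61 ± 0.392 TPM (−0.84, adjusted p = 1.269e-04; SD, n = 3 each). Cdca7 also fell with the knockdown alone and with DTPA alone (−0.52 and −0.91), as did Pclaf (−0.88 and −0.76) and Hells (−0.76 and −0.54). The calls of Pclaf and Hells with DTPA (adjusted p = 0.0137 and 0.0151) were lost without either siControl plus DTPA library, and that of Hells also without siControl replicate 1. With the 3 other scalings the double treatment gave 4 higher and 5 lower among these partners.

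Readers of methylated DNA moved in both directions too. All 10 were tested, and 5 rose and 3 fell with both treatments (26.7% and 39.9% over all genes), with a median of 0.14 against −0.08 for all genes. Zbtb4, a zinc finger repressor that binds methylated CpG, had the largest rise, averaging 9.53 ± 0.44 TPM in siZIP10 plus DTPA and 4.02 ± 0.473 TPM in siControl (1.07, adjusted p = 1.956e-06). Zbtb38 of the same family averaged 8.52 ± 0.233 against 5.72 ± 0.528 TPM (0.51, adjusted p = 4.761e-04). Mbd4, a glycosylase that repairs thymine left by deaminated methylcytosine, averaged 5.42 ± 0.344 against 8.52 ± 0.663 TPM (−0.57, adjusted p = 5.778e-05; SD, n = 3 each). With the knockdown alone Mbd4 (−0.43, adjusted p = 0.00174) and Mbd1 (−0.16, adjusted p = 0.00264) fell, and Mbd2 rose (0.11, adjusted p = 0.0406), a call lost without siControl replicate 2 or 3, siZIP10 replicate 2 or 3, or siZIP10 plus DTPA replicate 1 or 3. With DTPA alone 2 rose, among them Zbtb4 (0.40), and 1, Mbd1, fell (−0.20, adjusted p = 0.0013), where 9.98% of all genes rose and 18.8% fell. Without siControl plus DTPA replicate 1 these counts were 0 higher and 1 lower.

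Base excision repair completes active demethylation, and its genes moved in both directions. All 13 were tested, and 4 rose and 7 fell with both treatments (26.7% and 39.9% over all genes, median of the list −0.19). With the knockdown 4 rose and 3 fell (13.1% and 17.5% over all genes), and with DTPA 3 rose and 5 fell (9.98% and 18.8%). Neil3, a replication-linked glycosylase, averaged 0.105 ± 0.0353 TPM in siZIP10 plus DTPA and 5.33 ± 0.244 TPM in siControl (−2.52, adjusted p = 6.17e-09). Gadd45b, a stress-induced gene linked to demethylation, averaged 0.504 ± 0.237 against 4.67 ± 0.939 TPM (−1.91, adjusted p = 9.335e-06), with 244 reads over all libraries. The more abundant Gadd45a and Gadd45g of the same family averaged 226.7 against 226.9 TPM and 259.4 against 221.0 TPM. Ung, the uracil glycosylase, averaged 5.55 ± 0.551 against 11.6 ± 0.768 TPM (−0.95, adjusted p = 1.051e-06; SD, n = 3 each). Neil2 averaged 16.7 TPM in siZIP10 plus DTPA, 16.1 TPM in siZIP10, 15.5 TPM in siControl plus DTPA and 11.5 TPM in siControl, with a rise of 0.46 in siZIP10 (adjusted p = 2.291e-04) and a difference of 0.40 with DTPA alone.

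TET enzymes need 2-oxoglutarate, which IDH1 makes. Of the 10 cofactor and partner genes 4 were tested, and with both treatments 3 rose and 1 fell (26.7% and 39.9% over all genes). Idh1 averaged 555.7 ± 11.4 TPM in siZIP10 plus DTPA, 446.1 ± 7.71 TPM in siZIP10, 397.9 ± 0.101 TPM in siControl plus DTPA and 311.6 ± 7.46 TPM in siControl. It rose in all 3 treatments (0.83, 0.52 and 0.35, highest adjusted p = 1.144e-05). Ogt, a glycosyltransferase that binds TET proteins, rose with both treatments (0.21, adjusted p = 0.00473). Cxxc4 and Nanog were at 0.

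The methyl donor cycle supplies S-adenosylmethionine to DNMT enzymes. Of 10 genes 9 were tested, and 3 rose and 6 fell with both treatments (26.7% and 39.9% over all genes, median of the list −0.20). With the knockdown 3 rose and 2 fell (13.1% and 17.5% over all genes), and with DTPA 1 rose and 2 fell (9.98% and 18.8%). Mtr, methionine synthase, averaged 27.4 ± 0.756 TPM in siZIP10 plus DTPA and 45.5 ± 1.72 TPM in siControl (−0.71, adjusted p = 3.818e-08). Adk, which removes the adenosine formed in the cycle, averaged 402.2 ± 12.5 against 272.5 ± 6.57 TPM (0.56, adjusted p = 1.522e-08), and Mat2a, which makes S-adenosylmethionine, 126.2 ± 3.63 against 89.0 ± 1.55 TPM (0.50, adjusted p = 5.887e-07; SD, n = 3 each). Mtr was lower with either treatment alone, too (−0.27 and −0.22).

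**Figure D5:**
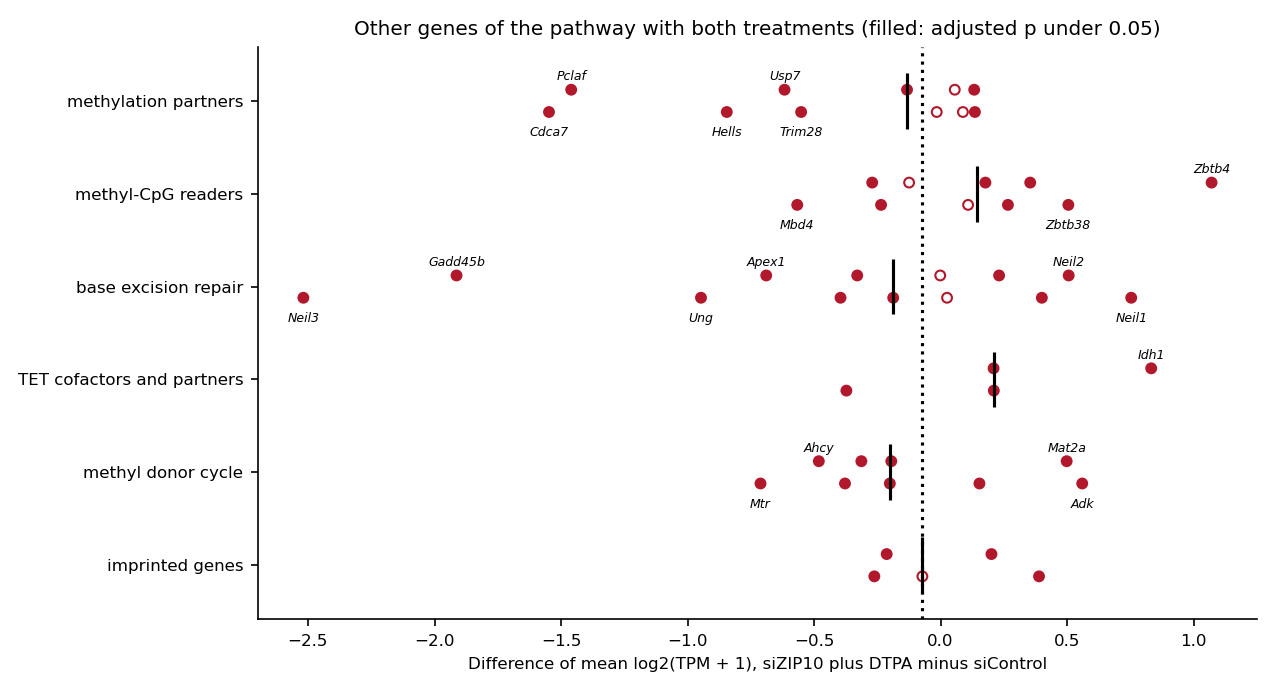
Difference of mean log2(TPM + 1), siZIP10 plus DTPA minus siControl (x axis), for the tested genes of 6 lists (y axis), with each list's median as a bar and the median of all tested genes (−0.08) dotted. Filled points have an adjusted p under 0.05, and genes beyond 0.45 either way are named.

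Genes that DNA methylation keeps silent in other somatic cells were at or near 0. Of 18 such germline genes 10 were at 0 in every library and 17 averaged under 1 TPM. The summed level of the 18 was 3.36 to 5.71 TPM in siZIP10 plus DTPA, 1.67 to 3.89 TPM in siZIP10, 2.57 to 2.78 TPM in siControl plus DTPA and 2.32 to 3.12 TPM in siControl. The doubly treated libraries were thus above those of siControl, 3.36 against 3.12 TPM at the nearest. More genes of any kind were above 0 in the doubly treated libraries, 15696 to 16147 against 15265 to 15327 in siControl. The part of that in the germline sum was not tested. The 1 tested gene, Rhox5, made up most of the mean sum and passed in 0 of the 3 comparisons with siControl (2.73 TPM with both treatments against 2.44 TPM in siControl). Below the filter and not tested, Sycp3 averaged 0.968 against 0.191 TPM and Brdt 0.397 against 0.133 TPM (32 and 103 reads over all libraries). Sycp3 was at 0 in siZIP10 and in siControl plus DTPA. Slc25a31 went the other way (0.0226 against 0.0505 TPM, 3 reads). Among 18 imprinted genes, expressed from 1 parental copy under the control of methylation, 5 were tested, and with both treatments 2 rose and 2 fell (26.7% and 39.9% over all genes). Impact averaged 142.7 ± 1.09 TPM in siZIP10 plus DTPA and 108.8 ± 5.21 TPM in siControl (0.39, adjusted p = 1.643e-06), and Peg3 34.1 ± 1.62 against 39.6 ± 0.834 TPM (−0.21, adjusted p = 0.00408). Igf2r averaged 90.1 ± 3.59 against 108.2 ± 2.36 TPM (−0.26, adjusted p = 2.232e-04; SD, n = 3 each), a call lost with quantile normalization (adjusted p = 0.0799). H19 and Igf2 were at 0.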

How the data were processed

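RNA was sequenced from 12 cultures of G1E-ER4 cells with a stranded poly(A) kit, per the labels' protocols. The authors deposited TPM per gene for each library, 55487 rows summing to 1e+06. The build was mm10 and the tools included edgeR, featureCounts, HISAT2 2.1.0, FastQC and Trimmomatic 0.33, per the submitters' processing notes. Settings, annotation and the strand option were not given in the sources used here, so values of overlapping genes are uncertain. Positions and exon lengths came from the GENCODE M21 annotation, with 53243 rows matched by a unique name.

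The library labelled siControl plus DTPA replicate 3 held the values of siZIP10 replicate 1 and was left out (any other pair shared at most 0.0121% of its values above 0). TPM times exon length fell on whole reads for 99.0% to 99.2% of values of 1 to 20 reads (within 0.1 read), which gave depth and reads per gene. PCR copies carry no molecular identifiers, so the limit of 3 reads covers counting error only.

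The 11379 genes that averaged 1 TPM or more were tested on log2(TPM + 1) with limma 3.58.1 in R 4.3.3, with a trend, 4 group means, 7 residual and 3.21 prior degrees of freedom, two-sided, Benjamini-Hochberg within each of 6 comparisons, threshold 0.05. The fit was tested on simulated data. Tables and figures were made with matplotlib 3.10.9, pandas 2.3.3, numpy 2.4.6 and Python 3.11.15. All 8 genes were named. From each further list up to 3 passing genes with the largest absolute change per comparison with siControl were eligible to be named, and some of these are not reported here. Genes and lists were chosen with earlier results of these data known. The 20 genes that every cell uses were chosen after the data were seen. Alternatives were another pseudocount, filters, 3 scalings, no trend, only the groups compared, a replicate block, voom on recovered reads, 12 libraries as labelled, and leaving out each library.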

Additional observations from a re-analysis of the deposited data

Results flagged for a closer look

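The DTPA effect in knockdown cells minus that in control cells passed the threshold for none of the 6 tested genes of the set with limma, but it did for the 27 genes given here, measured beside them (adjusted p under 0.05), as log2 differences with no explanation. It passed for 32.4% of all tested genes. Apart from Slc39a10, the 27 were among the genes of each list with the largest changes against siControl. Of all 32 S-phase genes 14 passed as lower and 2 as higher (20.4% and 12.0% over all tested genes), with a median of −0.30. Among the S-phase genes named, the difference was −1.96 for Mcm5, −1.48 for Mcm6, −1.35 for Cdc6, −1.26 for Rrm2 and −0.73 for Cdc45, against −0.10 for Uhrf1. Among methyl-CpG readers it was 0.53 for Zbtb4 and 0.27 for Mbd2, and in base excision repair −0.85 for Neil3 and −0.35 for Neil2. In the methyl donor cycle it was −0.34 for Mat2b, −0.22 for Mtr, 0.28 for Adk and 0.46 for Mat2a. Among imprinted genes it was 0.54 for Peg3, −0.33 for Snrpn, −0.28 for Igf2r and −0.16 for Impact. Among erythroid markers it was −2.77 for Slc4a1, −1.18 for Trim10, −0.79 for Epor and −0.42 for Hbb-bs. Among markers of other blood cells it was 2.38 for Hdc, 1.27 for Gp1ba, 1.16 for Spi1, 0.75 for Itga2b and 0.72 for Itgb3. For Slc39a10 it was −0.70, a value that changed sign in 2 of 22 alternatives. As a ratio of mean TPM, DTPA raised Slc39a10 8.05-fold in control cells and 8.14-fold in knockdown cells. The −0.70 is thus a difference on the log2(TPM + 1) scale, which understates changes at low TPM, and not in the ratio of TPM. Under the alternatives the threshold was missed in 17 of 22 for Impact, 10 of 21 for Itga2b, 3 for Slc39a10, 2 for Mtr and Hbb-bs, and 1 for Zbtb4, and in none for the other genes past the threshold.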

How the results depend on the processing

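Over 22 alternatives, the Uhrf1 and Dnmt1 changes in the 5 comparisons between groups kept their direction and stayed past the threshold, as did Dnmt3b (21 alternatives, since a filter of 5 TPM removes it) and Tet3 with both treatments. Of 786 member changes recomputed, 756 kept direction and side of the threshold, 21 lost their call, 4 gained one and 5, none of them past the threshold, changed sign. The last were Tet2 with DTPA using 12 libraries as labelled (0.0088), Tdg with both treatments after scaling to nuclear protein-coding genes (0.0032) or by median-of-ratios (0.0053), and the Dnmt1 interaction without siControl plus DTPA replicate 2 (−0.0032) or siZIP10 plus DTPA replicate 1 (−0.00069), with a range of −0.0032 to 0.0676 over all libraries left out in turn. Tet2 with both treatments also lost its call with 12 libraries, no filter or only the groups compared (adjusted p = 0.0664 to 0.0763). The members passing for the knockdown within DTPA-treated cells ranged from 2 to 5 when 1 library was left out, 2 without siControl plus DTPA replicate 1, and 3 without replicate 2 or siZIP10 plus DTPA replicate 1. For the interaction they were 1 with quantile normalization and 1 with voom. The causes were not tested.

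Scaling moved the split of calls over all genes. The share of calls that were higher was 40.1% with both treatments, and 49.2% with median-of-ratios, 50.2% with quantile and 48.9% with nuclear protein-coding scaling. With the knockdown it was 42.9%, 48.4%, 54.3% and 43.4% in that order, and with DTPA 34.7%, 47.7%, 51.1% and 38.8%. Within knockdown cells DTPA gave 38.2%, 48.7%, 47.5% and 50.1%, within DTPA-treated cells the knockdown gave 40.2%, 49.0%, 48.8% and 53.0%, and the interaction gave 37.1%, 46.0%, 44.2% and 54.2%. Replicate numbers did not pair the libraries (correlations of deviations −0.0602 to 0.0607 for 15 same-number pairs, −0.0856 to 0.0659 for 30 others), and with the number as a block 2, 2, 5, 4, 5 and 0 members passed in the 6 comparisons, as without it. Dnmt3b rests on 97 to 182 reads a library, which limits its precision.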
